A study of Mus musculus with 6 samples.

Results

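The genes described here are the DEAD/DEAH-box RNA helicases, scored for splicing in cultured mouse cortical neurons. They are the 50 of 15705 genes in the deposited table whose symbol starts with Ddx or Dhx and a digit, leaving out Ddx20, Ddx3x and Ddx3y. Of these, 34 are Ddx genes and 16 are Dhx genes, and every member had a score in all 6 libraries. The N40K group had 3 libraries from neurons given lentivirus FCK1.3GW-N40K, which carries N40K, an N-terminal fragment of the U1 snRNP protein that Snrnp70 encodes. The control group had 3 libraries from neurons given the vector FCK1.3GW, which carries EGFP. Both viruses used the short CaMKII promoter, which is active mainly in excitatory neurons. All cultures came from C57BL/6 embryos at embryonic day 18 and were exposed to virus at day 7 in vitro for 3 days. Whether the replicates came from different cultures is not stated in the labels. The p-values therefore reflect the spread of these libraries alone, which may be technical.

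DEAD- and DEAH-box proteins use ATP to pull RNA strands or RNA and protein apart, and they take their names from the amino acids of a conserved box in the ATP-binding core. DEAD-box proteins mostly open short duplexes locally, while many DEAH-box proteins move along RNA. In every spliceosome cycle a series of them drives the changes from U1 binding at the 5′ splice site to release of the intron. Others build ribosomes, export mRNA, control translation and decay, or sense viral RNA. U1 snRNP itself pairs with the 5′ splice site at the start of the cycle, and its exchange for U6 needs the DEAD-box protein encoded by Ddx23.

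The symbols were set against coding sequence of the GENCODE M21 annotation (GRCm38), using the transcript with the longest coding region of each gene. Codons for DEAD, anywhere in the coding region, were present in 26 of 34 Ddx genes and 1 of 16 Dhx genes, against 1.0% of the 13687 coding genes of the table. Codons for DEAH were present in 8 of 16 Dhx genes and 1 of 34 Ddx genes, against 0.453%. With any amino acid allowed in the third place and histidine in the fourth, the share of Dhx genes was 15 of 16, against 4.26% of all coding genes. The Ddx gene with DEAH codons was Ddx11, a DNA helicase of chromosome cohesion. Of the 13 genes whose scores rose, 4 lack the exact DEAH or DEAD codons of their class and are not shown. Dhx57, Dhx36 and Dhx29 have no DEAH codons, Dhx29 being the Dhx gene with DEAD codons, and Ddx50 has no DEAD codons. With any amino acid allowed in place of A, these Dhx genes did match the form ending in histidine. Ddx50 matched the form ending in aspartate, which 13.1% of all coding genes hold. The sequences that follow give the first match to DEAH codons (Dhx) or DEAD codons (Ddx) in each coding region. They cover the other 9 rising genes, the falling genes Ddx17 and Ddx19a and the paralogs these are compared with. The 12 bases of the match are in capitals, with 9 coding bases on each side, 5′ to 3′. Whether a match lies in the ATP-binding core was not checked.
Dhx15: ataattcttGATGAGGCCCATgaaagaaca
Dhx33: gtcattttgGACGAGGCCCATgagcggact
Dhx40: attattttgGATGAAGCCCATgaaagaact
Ddx55: ctggtgctgGACGAGGCAGACagactgctc
Ddx26b: atgatgatcGATGAAGCAGATgagtttgta
Ddx42: cttgtgtttGATGAAGCCGATcgaatgttt
Ddx31: ctgattgtgGATGAAGCAGACaggatcttg
Ddx59: gtcgtagtaGACGAAGCTGACaccatgttg
Ddx6: atagtgctaGATGAGGCAGATaaattgttg
Ddx17: cttgtgttgGATGAGGCTGACcggatgctt
Ddx5: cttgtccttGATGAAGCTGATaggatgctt
Ddx19a: tttgttctgGACGAGGCTGATgtgatgata
Ddx19b: tttgttctgGACGAGGCTGATgtgatgata
The stretches of Ddx19a and Ddx19b are the same in every base. In Ddx26b the match starts at codon 596, against codon 171 in Ddx55 and codon 246 in Ddx17, so it may not be the box of a helicase core. The annotation calls Ddx26b by another symbol, Ints6l, a relative of an Integrator subunit.

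Each value is an Sd score, read here as splicing deficiency: a linear ratio per gene and library that in this field sets unspliced against spliced RNA, so that a higher score stands for less complete splicing. The sources used here give neither its formula nor the read depth behind it, and it is not a level of expression. For that reason neither the amount of helicase mRNA nor the cell makeup of the cultures can be read from it. Of the marker genes listed, 9 of 9 for neurons, 5 of 5 for astrocytes, 4 of 5 for microglia and 4 of 5 for the oligodendrocyte lineage had a score, which shows only that they were listed. The median score of a library lay between 0.0146 and 0.0163 in N40K neurons and between 0.0127 and 0.0136 in control neurons, a shift of 0.13 on the scale log2(score + 0.01) in the medians, while the median change of a gene was 0.06. Where changing this scaling ends, adds or turns a call or turns a class median, that is given beside the result.

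A subset of the helicase genes had higher scores in N40K neurons, led by Dhx57 and Dhx36, and most did not pass the test. Of the 50 members 13 rose, 2 fell and 35 did not pass the test (limma on log2(score + 0.01), Benjamini-Hochberg adjusted p under 0.05 over all 15705 genes). That is 26.0% rising and 4.0% falling, near the 21.5% and 4.11% of all genes. The rising genes were Dhx57, Dhx15, Dhx36, Dhx33, Dhx29, Dhx40, Ddx55, Ddx26b, Ddx50, Ddx31, Ddx59, Ddx42 and Ddx6, and the falling genes were Ddx19a and Ddx17. Every N40K score exceeded every control score in 21 members (42.0%, against 33.6% of all genes) and lay under all of them in 3 members (6.0%, against 8.67%). The median log2 change of the members was 0.08, against 0.06 over all genes, and the median ratio of mean scores was 1.10, against 1.11. Without control replicate 2, 7 members rose. Scaling moved the split. After each library was centred on its median, 7 members rose and 8 fell, the falls being Ddx19a, Ddx39b, Ddx10, Ddx17, Ddx24, Ddx1, Ddx19b and Ddx46. Quantile normalization gave 8 rises and 4 falls, and subtracting from each library the median of its genes' deviations (median-deviation scaling) gave 9 and 3.

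**Figure D1:**
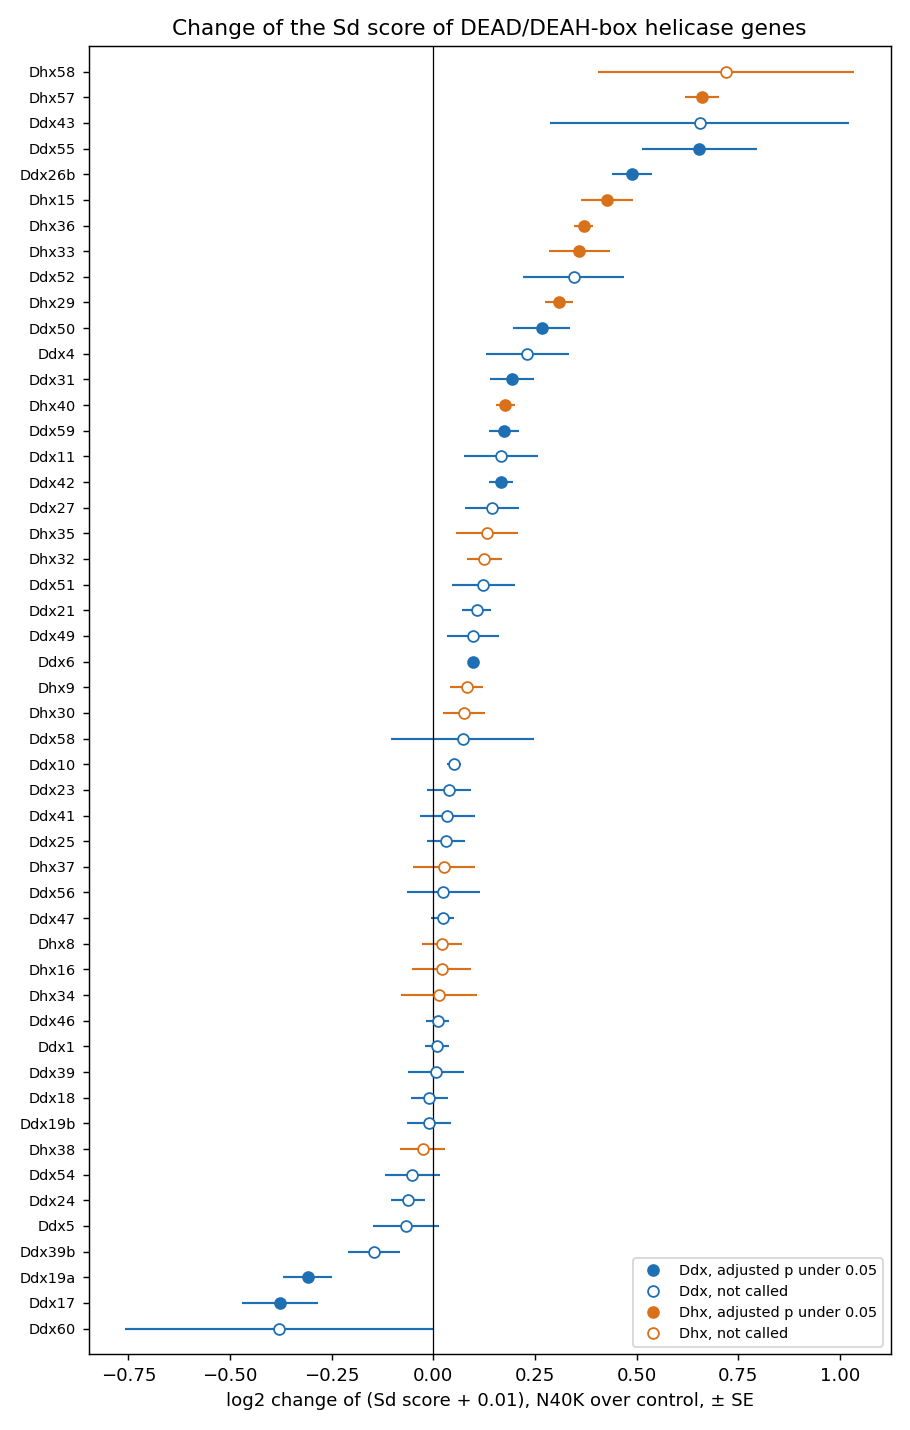
Log2 change of the Sd score (N40K over control, on the scale log2(score + 0.01)) with its SE for all 50 members, ordered by size, n = 3 libraries a group. Filled points passed the test: 13 lie right of 0 and 2, Ddx19a and Ddx17, lie left of it; the widest error bars belong to Ddx60, Ddx43 and Dhx58.

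The Dhx genes rose in a larger share than the Ddx genes. Of 16 Dhx genes 6 rose (37.5%) and 0 fell, and of 34 Ddx genes 7 rose (20.6%) and 2 fell (5.88%), against 21.5% and 4.11% of all genes, so that the Ddx shares were near those of all genes. The median ratio of mean scores was 1.29 for Dhx and 1.09 for Ddx genes, and the median log2 change was 0.13 for Dhx and 0.045 for Ddx genes. Both medians turned after each library was centred on its median, to -0.002 for Dhx and -0.085 for Ddx genes. The Ddx median turned also after quantile normalization (-0.048) and under median-deviation scaling (-0.02), where the Dhx median was 0.031 and 0.063. The N40K scores were all higher than every control score for 9 Dhx genes (56.2%) and 12 Ddx genes (35.3%), against 33.6% of all genes, which the Ddx share was near. The difference between the classes was not tested. In the libraries themselves, the median score over the Dhx genes was 0.0125, 0.0124 and 0.0140 in N40K neurons, against 0.0091, 0.0089 and 0.0095 in control neurons. The median over the Ddx genes was 0.0103, 0.0115 and 0.0118 in N40K neurons, against 0.00975, 0.0095 and 0.01 in control neurons. Neither set of medians overlapped between the groups, but neither did the medians over all genes. Those were 0.0146 to 0.0163 in N40K neurons and 0.0127 to 0.0136 in control neurons. In control neurons both classes had about the same median. With a library left out, 5 to 7 Dhx genes and 2 to 9 Ddx genes rose: 2 Ddx genes without control replicate 2, and 4 without control replicate 1, control replicate 3 or N40K replicate 3. After centring on library medians 5 Dhx and 2 Ddx genes rose, and the 8 falls were all in Ddx genes. By annotation 20 members overlap another gene, and their reads could have gone to the neighbour. For a neighbour on the opposite strand this holds only where strand was ignored in counting. Of the rising members, Dhx15, Dhx29, Dhx33 and Ddx6 overlap an annotated gene on the same strand, and Dhx57 and Ddx59 overlap genes on the opposite strand only. Among the 30 members without an overlap, 2 of 9 Dhx genes (22.2%) and 5 of 21 Ddx genes (23.8%) rose, so that the shares of the classes were close there.

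Among the 12 members with a role in splicing, 2 rose (16.7%, against 21.5% of all genes), 1 fell (8.33%, against 4.11%) and 9 did not pass. Dhx15 encodes the DEAH-box protein that takes the spliceosome apart after intron release. Its score was 0.0104, 0.0110 and 0.0137 in N40K neurons, against 0.0063, 0.0061 and 0.0059 in control neurons. All 3 N40K libraries were higher, with N40K replicate 3 the highest, and the ratio of mean scores was 1.92 (log2 change 0.43 ± 0.06 (SE), limma adjusted p = 0.00798). Ddx42 encodes a protein that binds the U2 snRNP factor SF3B. It scored 0.0057, 0.0052 and 0.0060 in N40K neurons, against 0.0040, 0.0036 and 0.0042 in control neurons, with a ratio of 1.43 and no overlap. The call of Ddx42 (limma adjusted p = 0.0139) ended without control replicate 2 (0.0515), after centring on library medians (0.441) and after quantile normalization (0.109).

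Ddx17 was the splicing member that fell. With its paralog Ddx5 it encodes DEAD-box proteins that take part in alternative splicing and act as transcription coactivators. Ddx17 scored 0.0596, 0.0563 and 0.0660 in N40K neurons, against 0.0859, 0.0737 and 0.0855 in control neurons. The groups did not overlap, and the ratio of means was 0.742 (log2 change -0.38 ± 0.09, limma adjusted p = 0.0343). That call ended without N40K replicate 1 (0.0768), N40K replicate 2 (0.101), control replicate 1 (0.106) or control replicate 3 (0.105). Ddx17 overlaps the protein-coding gene Kdelr3 on the opposite strand. Ddx5 scored 0.2104, 0.2163 and 0.2074 in N40K neurons, against 0.2170, 0.2115 and 0.2379 in control neurons, where the groups overlapped (limma adjusted p = 0.604). The score of Ddx17 relative to Ddx5 was 0.283, 0.260 and 0.318 in N40K libraries, against 0.396, 0.348 and 0.359 in control libraries. This relative score was lower in every N40K library, by -0.36 ± 0.10 on the log2 scale (SE, n = 3 each; exact permutation test, 2-sided, p = 0.1, the smallest that 3 against 3 allow; 0.15 adjusted over 6 pairs of related genes).

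Ddx39b, which helps U2AF place U2 snRNP and then serves mRNA export, had non-overlapping scores but did not pass. It scored 0.0358, 0.0342 and 0.0379 in N40K neurons, against 0.0418, 0.0394 and 0.0413 in control neurons, a ratio of 0.881 (limma adjusted p = 0.158). The call as a fall appeared after centring on library medians (0.0233) and after quantile normalization (0.0244). Its relative Ddx39, also an mRNA export factor, had means of 0.0687 ± 0.0025 and 0.0684 ± 0.0027 in N40K and control neurons (SD, n = 3). Relative to Ddx39, the Ddx39b score was 0.534, 0.507 and 0.529 in N40K libraries, against 0.607, 0.602 and 0.583 in control libraries, again without overlap (difference -0.19 ± 0.03, exact permutation p = 0.1, adjusted 0.15).

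The remaining splicing members did not pass the test. Ddx23 encodes the protein that lets U6 replace U1 at the 5′ splice site, the step closest to U1 snRNP. Its score was 0.0076, 0.0085 and 0.0095 in N40K neurons, against 0.0089, 0.0077 and 0.0075 in control neurons, with overlap (ratio 1.06, limma adjusted p = 0.657). Ddx46, whose protein acts when U2 joins the branch point, had a ratio of 1.04. Dhx16, which acts before the first catalytic step, had 1.02. Dhx38, which acts before the second step, had 0.975. For Dhx8, which releases the spliced mRNA, the ratio was 1.04. Ddx41 had 1.03 and Dhx35 had 1.29; both proteins are found in catalytic spliceosomes. Limma adjusted p-values of these 6 genes lay between 0.261 for Dhx35 and 0.873 for Dhx16, and their groups overlapped. After centring on library medians Ddx46 passed as a fall (log2 change -0.12, adjusted p = 0.0166).

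**Figure D2:**
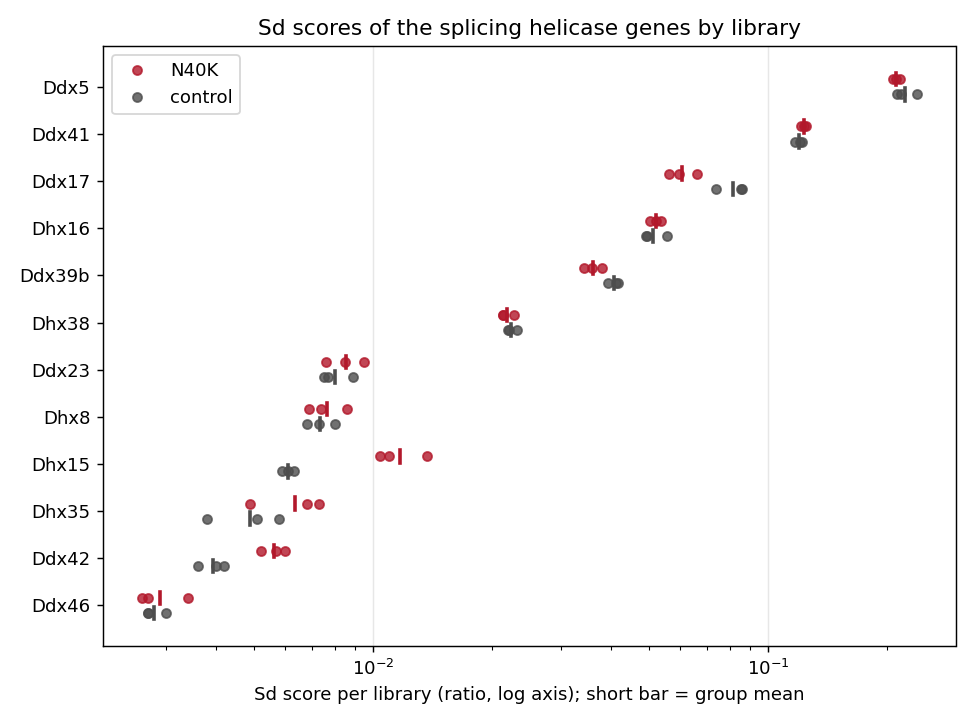
Sd score in each library (log axis) of the 12 members with a role in splicing, N40K above control within each gene, ordered by mean control score; points are libraries and short bars are group means. The control means run from 0.0028 for Ddx46 to 0.222 for Ddx5, and the groups are apart in Dhx15, Ddx42, Ddx17 and Ddx39b only.

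The other Dhx genes that rose had a listed role other than splicing (Dhx36, Dhx29 and Dhx33) or no assigned role (Dhx57 and Dhx40). Dhx57, to which no role is assigned here, had the largest ratio of the family. It scored 0.0127, 0.0131 and 0.0144 in N40K neurons, against 0.0050, 0.0045 and 0.0049 in control neurons. Every N40K score lay far above every control score of the gene, with a ratio of means of 2.79 (log2 change 0.66 ± 0.04, limma adjusted p = 0.00158). It overlaps Morn2 on the opposite strand. Dhx36 encodes a helicase that unwinds G-quadruplexes in RNA and DNA. Its score was 0.0059, 0.0063 and 0.0065 in N40K neurons, against 0.0027, 0.0024 and 0.0026 in control neurons, a ratio of 2.43 (limma adjusted p = 0.00154). Both groups were tight, and no annotated gene overlaps Dhx36. Dhx29, a helicase that helps ribosomes scan structured 5′ leaders, scored 0.0086, 0.0082 and 0.0077 in N40K neurons, against 0.0051, 0.0046 and 0.0043 in control neurons (ratio 1.75, limma adjusted p = 0.00421). Relative to Dhx29, the score of Dhx57 was 1.48, 1.6 and 1.87 in N40K libraries, against 0.980, 0.978 and 1.14 in control libraries, so that nearly equal scores in control neurons were apart in N40K neurons (difference 0.67 ± 0.12, exact permutation p = 0.1, adjusted 0.15).

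Dhx40 and Dhx33 completed the rising Dhx genes. Dhx40, whose role is not assigned here, scored 0.0052, 0.0057 and 0.0058 in N40K neurons, against 0.0038, 0.0038 and 0.0037 in control neurons (ratio 1.48, limma adjusted p = 0.00593). The control libraries were nearly equal, and the call ended after centring on library medians (0.268). Dhx33, a nucleolar helicase of rRNA synthesis, scored 0.0293, 0.0296 and 0.0326 in N40K neurons, against 0.0210, 0.0199 and 0.0239 in control neurons (ratio 1.41, limma adjusted p = 0.021). There was no overlap, but the call ended without N40K replicate 2 (0.0573), N40K replicate 3 (0.0568), control replicate 1 (0.0708) or control replicate 2 (0.0703), and after quantile normalization (0.0577).

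Of the 6 members that act in translation and mRNA fate, Dhx36, Dhx29 and Ddx6 rose (50%, against 21.5% of all genes) and 0 fell. Ddx6 encodes the helicase of P-bodies that promotes decapping and translational repression. Its scores, 0.0022, 0.0022 and 0.0023 in N40K neurons and 0.0015, 0.0014 and 0.0014 in control neurons, were among the lowest of the family. They did not overlap, and each library differed from the others of its group by at most the last deposited decimal (ratio 1.56, limma adjusted p = 0.00419). After centring on library medians the direction of Ddx6 turned (log2 change -0.03, adjusted p = 0.394), and under median-deviation scaling the call ended (0.193). Dhx9, a nuclear helicase of double-stranded RNA, had 0.0122 ± 0.0005 in N40K neurons and 0.0110 ± 0.0001 in control neurons (SD, n = 3). Its groups did not overlap, but it did not pass (limma adjusted p = 0.201). Dhx34, of nonsense-mediated decay, and Ddx1, of tRNA splicing, had ratios of 1.01 each and overlapping groups; Ddx1 passed as a fall after centring on library medians (0.0465).

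Ribosome biogenesis was the largest role, with 16 members, of which Ddx55, Dhx33, Ddx50 and Ddx31 rose and 0 fell. Those 4 are 25% of the role, near the 21.5% of all genes. Ddx55, a helicase of the large ribosomal subunit, scored 0.0416, 0.0371 and 0.0560 in N40K neurons, against 0.0273, 0.0221 and 0.0244 in control neurons. N40K replicate 3 stood highest, and the ratio of means was 1.82 (log2 change 0.65 ± 0.14, limma adjusted p = 0.0229). The call of Ddx55 ended without control replicate 1 (0.0528), control replicate 2 (0.0777) or control replicate 3 (0.0748). Ddx50 scored 0.0095, 0.0112 and 0.0122 in N40K neurons, against 0.0087, 0.0071 and 0.0065 in control neurons (ratio 1.48, limma adjusted p = 0.0423). This nucleolar gene kept its direction but lost its call without N40K replicate 2 (0.114), N40K replicate 3 (0.106), control replicate 2 (0.122) or control replicate 3 (0.128), and under each of the 3 other scalings (0.0606 to 0.117). Its paralog Ddx21, also nucleolar, had a ratio of 1.23 and did not pass (0.0765). The Ddx50 score relative to Ddx21 overlapped between the groups (difference 0.26 ± 0.15, exact permutation p = 0.3, adjusted 0.36).

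Ddx31, another nucleolar helicase gene, scored 0.0080, 0.0063 and 0.0081 in N40K neurons, against 0.0047, 0.0052 and 0.0059 in control neurons (ratio 1.42, limma adjusted p = 0.0488). With single libraries left out, the call held only without N40K replicate 2, and the adjusted p was 0.109 without N40K replicate 1, 0.125 without N40K replicate 3, and 0.138, 0.128 and 0.0753 without control replicates 1, 2 and 3. It ended also under each of the 3 other scalings (0.152 to 0.456). Ddx52, of the small subunit, had a ratio of 1.48 and did not pass (0.0951), but passed without N40K replicate 1 (0.0299). Ddx10, a factor of the small subunit with the lowest control mean of the family, had scores of 0.0012, 0.0015 and 0.0017 in N40K neurons, against 0.0010, 0.0011 and 0.0011 in control neurons. It did not pass (0.0882), passed as a rise without N40K replicate 1 (0.0165), and passed as a fall after centring on library medians (log2 change -0.08, adjusted p = 0.0469). Ddx51, of the large subunit, had the highest control mean of the family at 0.2415 ± 0.0098, against 0.2638 ± 0.0081 in N40K neurons, and did not pass (0.305). The other 9 members of this role, Ddx18, Ddx24, Ddx27, Ddx47, Ddx49, Ddx54, Ddx56, Dhx37 and Ddx21, had ratios from 0.903 for Ddx24 to 1.23 for Ddx21. Ddx24 passed as a fall under each of the 3 other scalings (0.0161 to 0.0448).

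Of the 3 mRNA export members, Ddx19a fell (33.3%, against 4.11% of all genes) and Ddx19b and Ddx39 did not pass. Ddx19a and Ddx19b encode helicases that strip proteins from mRNA at the nuclear pore. Ddx19a scored 0.0090, 0.0094 and 0.0104 in N40K neurons, against 0.0154, 0.0147 and 0.0128 in control neurons. The groups did not overlap (ratio 0.671, log2 change -0.31 ± 0.06, limma adjusted p = 0.0172), but the call ended without N40K replicate 2 (0.0597), control replicate 1 (0.0558) or control replicate 2 (0.0604). Ddx19b scored 0.0066, 0.0078 and 0.0084 in N40K neurons, against 0.0081, 0.0069 and 0.0082 in control neurons, and these overlapped; it passed as a fall after centring on library medians (0.0368). Relative to Ddx19b, the Ddx19a score was 1.36, 1.21 and 1.24 in N40K libraries, against 1.90, 2.13 and 1.56 in control libraries (difference -0.545 ± 0.142, exact permutation p = 0.1, adjusted 0.15). The values of both genes are uncertain, since 23.2% of all 100-base windows of the Ddx19a transcript, the length of a read, occur unchanged in Ddx19b. No such window was shared between Ddx17 and Ddx5, Ddx50 and Ddx21 or Ddx39b and Ddx39.

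**Figure D3:**
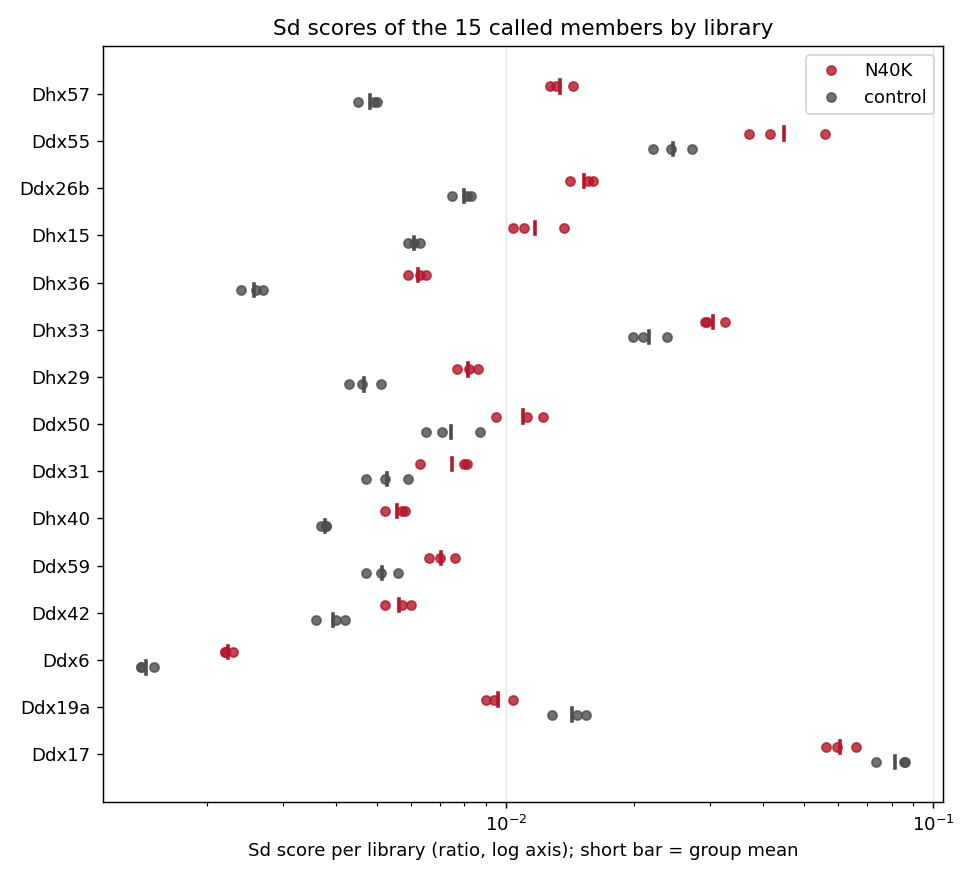
Sd score in each library (log axis) of the 15 members that passed the test, N40K above control within each gene, ordered by log2 change; points are libraries and short bars are group means. N40K libraries lie right of control libraries in 13 genes, with the widest gaps in Dhx57 and Dhx36, and left of them in Ddx19a and Ddx17.

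Ddx26b, the Integrator-related gene, and Ddx59 were the other Ddx genes that rose. Ddx26b scored 0.0156, 0.0141 and 0.0160 in N40K neurons, against 0.0081, 0.0083 and 0.0075 in control neurons (ratio 1.91, limma adjusted p = 0.00337). All N40K libraries were close to each other and well above the control libraries. Ddx59, mutated in a human orofaciodigital syndrome, scored 0.0066, 0.0076 and 0.0070 in N40K neurons, against 0.0051, 0.0047 and 0.0056 in control neurons (ratio 1.38, limma adjusted p = 0.0216). It ended as a call without N40K replicate 2 (0.063), N40K replicate 3 (0.0554), control replicate 1 (0.0703) or control replicate 2 (0.0726), and under each of the 3 other scalings (0.0697 to 0.44). Dhx32, with no role assigned here, had a ratio of 1.30 and no overlap, and passed only without N40K replicate 1 (adjusted p = 0.0155, against 0.0875 with all libraries).

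The helicases of the antiviral response varied widely between libraries, and 0 of 3 passed. Dhx58, which encodes the RIG-I relative LGP2, scored 0.1014, 0.1181 and 0.1580 in N40K neurons, against 0.0544, 0.0549 and 0.1183 in control neurons. Control replicate 3 stood at about the level of N40K replicate 2. On the scale log2(score + 0.01) the change of Dhx58, 0.72 ± 0.31, was the largest of the family. Its ratio of mean scores, 1.66, was below those of several members, such as Dhx57 (2.79) and Dhx36 (2.43). Dhx58 did not pass (limma adjusted p = 0.154), but passed without control replicate 3 (0.0364). Ddx60, an interferon-induced helicase, scored 0.0230, 0.0348 and 0.0166 in N40K neurons, against 0.0167, 0.0367 and 0.0593 in control neurons, so that control replicate 3 stood highest and the groups overlapped (limma adjusted p = 0.524). Ddx58, which encodes the RNA sensor RIG-I, had 0.0317 ± 0.0101 in N40K neurons and 0.0290 ± 0.0029 in control neurons (SD, n = 3). Both cultures had received lentivirus, so no group without virus was compared.

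Germ-line members also varied. Ddx4, the vasa gene of germ cells, scored 0.0022, 0.0059 and 0.0055 in N40K neurons, against 0.0022, 0.0022 and 0.0025 in control neurons. N40K replicate 1 lay among the control libraries; with it the gene did not pass (limma adjusted p = 0.158) and without it the gene passed (0.00295). Ddx43 had 0.0470 ± 0.0079 in N40K neurons and 0.0290 ± 0.0179 in control neurons, and Ddx25, an export helicase of the testis, had 0.0026 ± 0.0006 and 0.0023 ± 0.0006; neither passed. Among the members not yet described, Ddx11 had a ratio of 1.22 with overlapping groups, and Dhx30, of mitochondrial ribosomes, had 1.08 without overlap; neither passed.

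Rising members had low scores in control neurons. Of 25 members with a control mean under 0.01, the pseudocount of the test, 11 rose (44.0%, against 33.0% of all genes under that level), and of the other 25 members 2 rose (8.0%, against 12.7%). Under that level 5 of 8 Dhx genes and 6 of 17 Ddx genes rose, and above it 1 of 8 and 1 of 17. Both falling members were above it. Across members the ratio of mean scores had a Spearman rho of -0.51 with the control mean and 0.46 with gene length (n = 50 genes), against -0.32 and 0.39 across all genes (n = 15705 and 14911). The ratio and the control mean share the control libraries, so they are not independent measures. Length classes of all annotated genes, cut at 14.8 and 44.6 kb, held 0 of 11 rising members in the shortest class, 10 of 30 in the middle class and 3 of 9 in the longest class. In all genes those shares were 7.96%, 18.9% and 38.8%. The median length was 34.0 kb for Dhx and 22.0 kb for Ddx genes, so the classes differ in length too; the part of length in their changes was not tested.

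**Figure D4:**
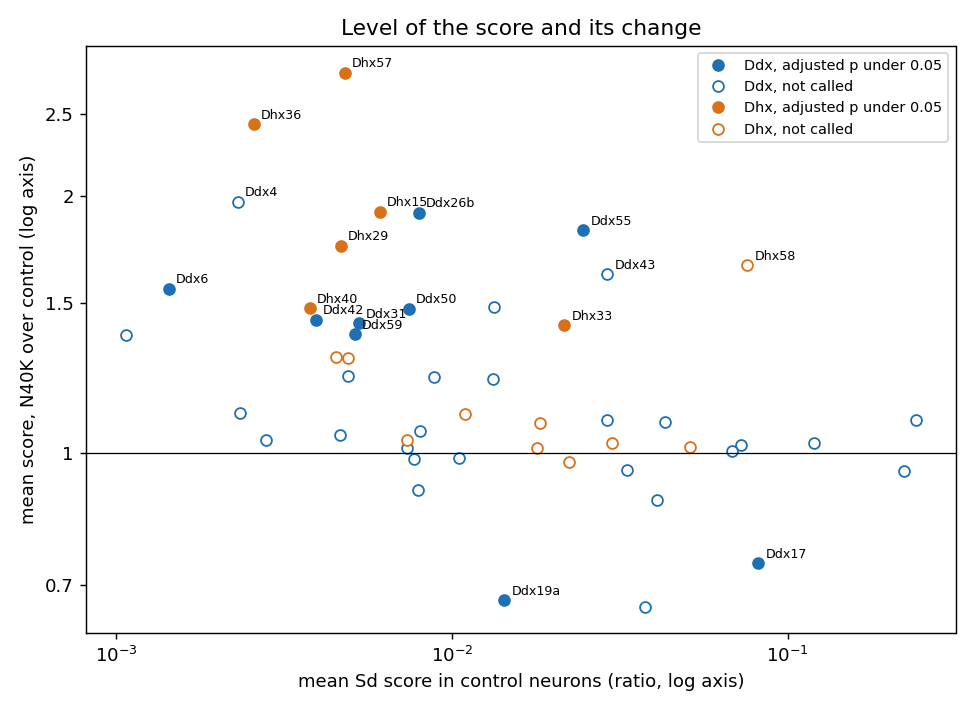
Ratio of mean Sd scores, N40K over control (log axis), against the mean score in control neurons (log axis) for 34 Ddx and 16 Dhx genes; filled points passed the test. The rising genes lie left of 0.01 in 11 of 13 cases, and Ddx19a and Ddx17 lie under the line at 1.

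Helicase genes carry more introns than most, with a median of 16, against 9 over all genes, and 20 for Dhx and 14 for Ddx genes. U1 snRNA pairs with the last bases of an exon and the first of the intron, and the exon part of its best match is CAG. In the annotated transcripts a median of 23.1% of the exons before an intron ended in CAG for the members, against 22.2% over all genes. This share was 28.3% for Dhx and 22.6% for Ddx genes, and 29.4% for the rising members. The 6 rising Dhx genes had a lower median, 25.1%, than all Dhx genes. In Ddx17, which fell, 0 of 12 such exons ended in CAG, and in Ddx19a the share was 9.1%. Members that did not pass had shares as low, with 8.3% in Ddx5 and 9.1% in Ddx47 and Ddx19b. The share had a Spearman rho with the ratio of scores of -0.03 within Dhx genes (n = 16), 0.34 within Ddx genes (n = 34) and 0.25 across members (n = 50), against 0.03 over all genes with introns (n = 13650). The score covers a whole gene, so single introns cannot be compared.

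RNA helicases with other symbols and the G-patch proteins, which switch on several DEAH-box helicases, were described as lists. Of 21 listed helicase symbols 20 had a score. Of those, 8 rose and 0 fell (40% rising, against 21.5% of all genes), with a median ratio of 1.22. The listed genes were also longer, with a median of 41.3 kb, against 25.4 kb over all annotated genes, and the part of length was not tested. After centring on library medians 4 of those 8 calls held, and those of Aqr (0.534), Dicer1 (0.0809), Ighmbp2 (0.224) and Skiv2l2 (0.877, with its direction turned) ended. Tdrd9, a germ-line relative of the DEAH-box family, had 0.0162 ± 0.0029 in N40K neurons and 0.0058 ± 0.0020 in control neurons (SD, n = 3; limma adjusted p = 0.0111). Ythdc2, a meiotic RNA helicase with an m6A reader domain, had a ratio of 2.01, and Mov10l1, a piRNA helicase, 2.44. Aqr, which binds introns, and Dicer1, Ighmbp2 and Skiv2l2 had ratios from 1.27 for Ighmbp2 to 1.68 for Aqr. The call of Aqr ended under no other alternative. After quantile normalization those of Dicer1 (0.066), Ighmbp2 (0.333) and Skiv2l2 (0.237) ended, and under median-deviation scaling those of Ighmbp2 (0.0696) and Skiv2l2 (0.203). With single libraries left out, that of Dicer1 ended without control replicate 1 or 3 (highest adjusted p = 0.0598), that of Ighmbp2 without any 1 of the 6 libraries (0.0874) and that of Skiv2l2 without any but N40K replicate 2 (0.143). Ascc3 passed as a rise only without N40K replicate 1 (adjusted p = 0.0111), and Ifih1 only without N40K replicate 3 (0.0264). The DEAD-box translation factor genes Eif4a1 and Eif4a2, with ratios of 0.998 and 1.00, did not pass. Of 23 listed G-patch symbols, not all of which need be separate genes, 20 had a score. Of those, 2 rose (10%, against 21.5% of all genes) and 0 fell. The rising G-patch genes were Sugp2, with a ratio of 1.64 (limma adjusted p = 0.00773), and Gpatch2, with 1.37 (0.047). The call of Gpatch2 ended without any 1 of the 6 libraries (0.0636 to 0.126) and under each of the 3 other scalings (0.0712 to 0.17). Gpatch1 passed as a rise only without N40K replicate 1 (0.0148). Aggf1 passed as a fall after centring on library medians (0.0171) and after quantile normalization (0.0334), and Rbm6 after the centring alone (0.0172). Tfip11, whose protein activates DHX15 in human cells, had 0.0209 ± 0.0020 in N40K neurons and 0.0173 ± 0.0015 in control neurons and did not pass (0.152).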

How the data were processed

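Libraries were stranded, made from poly(A) RNA and sequenced as paired 100-base reads, per the labels' protocols. Tools listed in the submitters' processing notes are STAR, BWA, CASAVA and bedtools 2.16.1, and the build is mm9; which did what is not given there. The authors deposited 1 table of Sd scores, taken here to be a linear ratio per gene and library. How it was computed, filtered and annotated is not given in the sources used here, and its depth is unknown. Columns were matched by name; 0 columns of values were unused and no columns were identical. The test was limma 3.58.1 (R 4.3.3) on log2(score + 0.01) (lmFit, eBayes with trend, 2-sided, Benjamini-Hochberg over 15705 genes, threshold 0.05). A filter (a score in all libraries, above 0 in at least 3) removed no gene. Changes on this scale are understated for low scores, so ratios of mean scores are given. Members and lists were chosen with earlier results of these data known, and no list was tested. Named were all called members, all splicing members, the highest and lowest control means and the 10 largest other changes; the rest are summarised. Of the related helicases that were called, 1 is not reported here by name. Pairs of related genes were compared by their log2 score ratio with an exact permutation test (scipy 1.17.1). Several of these pairs hold a called gene, so a shift in their ratio is no evidence independent of that call. GENCODE M21 (GRCm38, not mm9) was matched by gene identifier for 50 members and 94.9% of all genes, for names, lengths, overlaps and coding sequence (Biopython 1.88). The fit was tested on simulated data. Alternatives were other pseudocounts, filters, scalings, eBayes without trend, a replicate block and each library left out.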

Additional observations from a re-analysis of the deposited data

How the results depend on the processing

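With 1 library left out, 7 to 16 helicase members rose and 0 to 2 fell; for Ddx members 2 to 9 rose and for Dhx members 5 to 7. Over all genes 1613 to 3729 rose and 303 to 486 fell. The median log2 change lay between 0.036 and 0.074 for Ddx members and between 0.1 and 0.181 for Dhx members. The direction of both medians was kept in these fits. When the 25% of genes with the lowest mean scores were removed, 41 members were left, of which 8 rose, 4 of them Ddx members, and 1969 genes rose in all; the Dhx median was 0.104. Fewer genes were tested there, by construction.

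Centring each library on its median gave 7 rising and 8 falling members, 2 rising Ddx members, and 1531 rising and 2883 falling genes. The medians turned to -0.085 for Ddx and -0.002 for Dhx members. Many members with small positive changes turned negative, among them Ddx6 (-0.033), Ddx10 (-0.079), Ddx46 (-0.12) and Ddx1 (-0.122). Quantile normalization gave 8 and 4 members, 3 rising Ddx members, 2022 and 1883 genes, and medians of -0.048 for Ddx and 0.031 for Dhx. Centring on the median deviation gave 3 rising Ddx members, 2235 and 1518 genes, and medians of -0.02 and 0.063. Pseudocounts of 0.001 and 0.1 gave Ddx medians of 0.098 and 0.012 and Dhx medians of 0.31 and 0.019. With no pseudocount and only genes whose mean score reached 0.002, these were 0.086 and 0.368. Low scores move more on the log2 scale as the pseudocount falls, by construction; the cause of the other shifts was not tested.

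The replicate numbers did not pair the libraries (r between deviations of same-numbered libraries -0.0712, 0.0376 and -0.0201), and not every library correlated best with its own number. With the replicate number as a block, 9 members rose, 3 of them Ddx members, 0 fell, and 1770 genes rose and 328 fell; without the block 13 members rose and 2 fell. Of the 15 called members, 5 (Dhx57, Ddx26b, Dhx15, Dhx36 and Dhx29) were called the same way in every alternative that could be fitted to them, out of 16, and 7 in every fit with 1 library left out. The depth behind the scores is unknown, and the 4 deposited decimals limit the lowest of them, such as those of Ddx10 and Ddx6.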
